A study of Drosophila melanogaster with 6 samples.

Results

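The translation initiation factor genes of Drosophila melanogaster were followed in adult flight muscles depleted of the promoter-binding transcription factor M1BP. They were taken by 1 rule, a gene symbol that begins with eIF (letter case kept) in the gene table of the study, joined to the exon counts by FlyBase identifier, which gave 43 genes of the 17494 in the count table. The rule reads the symbol alone. RNA was sequenced from hand-dissected indirect flight muscles, the large muscles of the thorax that move the wings, of 2-day-old females, 30 to a sample, and the labels name the dorsolongitudinal set of these muscles. The 3 WT samples came from Mef2-GAL4 flies crossed to w1888 (Mef2>WT), and the 3 M1BP RNAi samples from the same driver crossed to RNAi line #1 (Mef2>M1BP RNAi). Mef2-GAL4 is active in all muscles and from development onwards, so the knockdown (KD) was neither limited to flight muscle nor begun in the adult. The study adds that the driver can be active in some neurons, and that the fat body expresses Mef2. A single RNAi line stands for the KD.

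Translation begins when a small ribosomal subunit, loaded with initiator methionyl-tRNA by eIF2 and held in a preinitiation complex by eIF1, eIF1A, eIF3 and eIF5, is brought to the capped end of an mRNA by the cap-binding complex eIF4F and scans to a start codon. eIF2B then recharges eIF2 with GTP, eIF5B joins the large subunit, and eIF6 keeps large subunits from joining too early. Phosphorylation of eIF2alpha turns eIF2 into an inhibitor of eIF2B and so lowers initiation throughout the cell. Most of these factors are assemblies of several subunits, and Drosophila melanogaster has additional copies (paralogs) of some of them, a few of which act in the male germline.

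The libraries held between 45132859 and 64871987 counts for WT, and between 37908823 and 64768186 for the KD. Mitochondrial genes took 71.5% to 76.3% of counts in WT against 54.0% to 59.4% in the KD, so values are given below as counts normalised by the TMM factors of edgeR. M1BP itself was at 149, 123 and 119 normalised counts in WT against 49.5, 50.1 and 52.0 in the KD. All 7 flight muscle markers were present in every sample, at 876242 to 935258 normalised counts in sum for WT against 1067860 to 1568380 for the KD. They differed in direction, since Act88F (log2 fold change 1.83) and Mhc (1.63) rose and Mf (−3.35) and salm (−1.48) fell. Fat body markers summed to 48633 to 85812 normalised counts in WT against 12248 to 25972 in the KD, with 0 of 5 tested markers passing the thresholds below in edgeR and 4 lower and 1 higher at an unadjusted p under 0.05. Haemocyte markers (2324 to 2903 against 1224 to 1728) and neuronal markers (1256 to 1683 against 737 to 926) had lower summed levels upon M1BP RNAi, as had the tracheal markers (585 to 611 against 235 to 371), of which trh fell. Of the female germline markers osk, vas and nos, M1BP RNAi sample 1 had 123, 24 and 16 counts, and no other sample had more than 6 of any. Of 5 testis markers, 4 were at 0 in all samples. Without that sample, the same 21 initiation factor genes were called as with it, whereas the summed fat body, haemocyte, neuronal and tracheal markers were lower in all 3 KD samples. The part of these other cell types in the results was not tested. In these bulk samples a change in the number of cells of a type cannot be told apart from a change in RNA per cell.

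Of the 43 initiation factor genes, 34 had enough counts to be tested and 9 did not. A gene was called at an adjusted p of at most 0.001 and a change of at least 1.5-fold, the p being from edgeR's quasi-likelihood test, adjusted by Benjamini-Hochberg over all 9276 genes tested. On this rule 21 of the 34 tested genes (61.8%) rose upon M1BP RNAi, where 11.0% of all genes tested rose. None fell past both thresholds, where 6.58% of all genes tested fell, although eIF1A, eIF4EHP and eIF5B had an unadjusted p under 0.05 in the lower direction and DESeq2 called 1 of these, eIF5B, lower (9.57% of all genes it fitted). At an adjusted p of at most 0.05 with any fold (edgeR), 28 initiation factor genes were higher (29.1% of all genes) and 2 were lower (27.0%). The normalised counts of the groups did not overlap for 28 genes that were higher (33.1% of all genes) and 3 that were lower (31.1%). By factor, the genes that rose were 3 of 3 for eIF2, 4 of 5 for eIF2B and 9 of 13 for eIF3, together with eIF2D, eIF4G1, eIF4H1, eIF5 and eIF6. The 13 tested genes that were not called were eIF1, eIF1A, eIF2Bgamma, eIF3f1, eIF3g1, eIF3h, eIF3j, eIF4A, eIF4B, eIF4E1, eIF4EHP, eIF4G2 and eIF5B.

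The median log2 fold change of the 34 genes was 1.17, beside 0.02 over all genes tested, and the called genes ran from 0.98 (eIF5 and eIF4G1) to 3.43 (eIF2beta). The initiation factor genes together took 0.227%, 0.258% and 0.250% of the nuclear counts in WT against 0.387%, 0.460% and 0.477% in the KD, so that every KD sample lay above every WT sample. With scaling by the total library size instead, the median over all genes moved to 0.77 and that of the initiation factor genes to 1.91. Under each scaling the median of the initiation factor genes lay above that of all genes. Such a change of scaling shifts all genes by about the same amount, so the second scaling is not a separate test of this. Of the 21 called genes, 8 (eIF2alpha, eIF2beta, eIF2gamma, eIF2Bepsilon, eIF3b, eIF3c, eIF3d1 and eIF6) passed both thresholds in all 6 fits that leave out 1 sample, and the number called in those fits was 8 without WT sample 1, 11 without WT sample 2, 16 without WT sample 3, 21 without M1BP RNAi sample 1, 11 without M1BP RNAi sample 2 and 14 without M1BP RNAi sample 3. The sign of the fold change of each of the 34 genes was the same in all 6 of these fits.

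**Figure D1:**
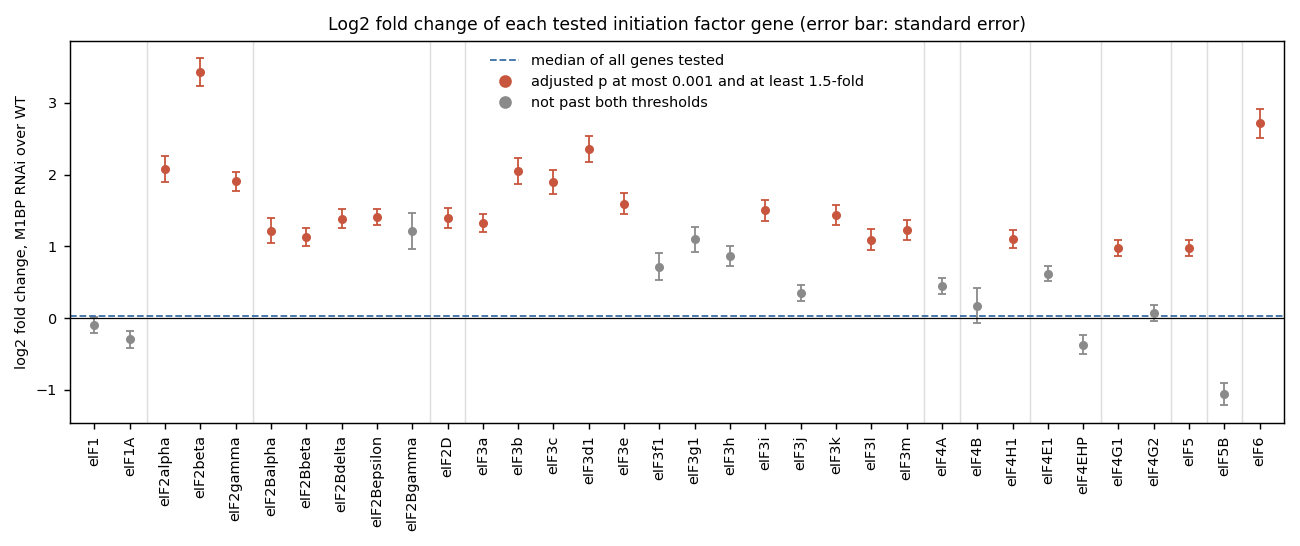
Log2 fold change (M1BP RNAi over WT, n = 3 samples each) of the 34 tested initiation factor genes, ordered by factor number, with the standard error as a bar. The red points passed an adjusted p of 0.001 and 1.5-fold, and the dashed line is the median of all 9276 genes tested (0.02). The genes of eIF2, eIF3b to eIF3d1 and eIF6 stand highest, and eIF5B lies at −1.06.

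All 3 genes of eIF2, the trimer that carries the initiator tRNA, rose. eIF2beta, the subunit that contacts eIF5 and eIF2B (chromosome 3L, 12525093 to 12526731, minus strand, on the genome build dm6 as for all positions given here), was at 175, 235 and 271 normalised counts in WT against 2188, 2408 and 2777 in the KD. The lowest KD sample was far above the highest WT sample. The means were 227 ± 48.9 in WT against 2458 ± 298 (SD, n = 3) in the KD, a log2 fold change of 3.43 (SE 0.20, edgeR adjusted p = 1.45e-05), which placed eIF2beta 137th of 9276 genes in order of fold change. It was the initiation factor gene with the highest fold change in this comparison.

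eIF2alpha, the subunit whose phosphorylation controls initiation (chromosome X, 16445176 to 16446993, minus strand), was at 392, 293 and 463 normalised counts in WT against 1432, 1682 and 1749 in the KD. Its log2 fold change was 2.08 (SE 0.19, edgeR adjusted p = 9.7e-05). The WT samples spread more than the KD samples in relation to their mean, and the groups lay far apart. eIF2alpha shares 192 exon bases (12.6%) with rngo on the opposite strand, and whether the counting used strand is not given. eIF2gamma, the subunit that binds GTP and the initiator tRNA (chromosome 3R, 15257844 to 15263458, minus strand), had 260.2, 303 and 347 normalised counts in WT against 1080.2, 1166 and 1175 in the KD, with a log2 fold change of 1.91 (SE 0.13, edgeR adjusted p = 3.46e-05). It shares 352 exon bases (16.0% of its exons) on the same strand with Su(var)3-9, the histone methyltransferase gene that is spliced from the same locus, and reads from those bases cannot be assigned to 1 of them.

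The 5 subunits of eIF2B, the exchange factor that returns eIF2 to its GTP-bound form, had fold changes within a narrow range. The catalytic subunit gene eIF2Bepsilon (chromosome X, 1920166 to 1922874, minus strand) was at 219, 240.3 and 225 normalised counts in WT against 559, 626 and 634 in the KD, a log2 fold change of 1.41 (SE 0.11, edgeR adjusted p = 5.02e-05). All KD samples exceeded all WT samples by a wide margin. Its partner in the catalytic subcomplex, eIF2Bgamma (chromosome 2R, 15542661 to 15544409, plus strand), had the highest mean share of the counts per kb of the 5 genes. The normalised counts of eIF2Bgamma were 294, 336 and 495 in WT against 631, 960.4 and 1033 in the KD. The groups did not overlap, but with a log2 fold change of 1.21 (SE 0.25, edgeR adjusted p = 0.00441) eIF2Bgamma did not pass the threshold, though DESeq2 called it higher.

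The regulatory subunit genes eIF2Balpha, eIF2Bbeta and eIF2Bdelta, whose products sense phosphorylated eIF2, each rose. eIF2Bdelta had 207, 226 and 235 normalised counts in WT against 504, 579.8 and 665 in the KD (log2 fold change 1.39, SE 0.14, edgeR adjusted p = 0.000144). eIF2Bbeta had 305, 248 and 265 in WT against 531, 619 and 639.9 in the KD (log2 fold change 1.13, SE 0.13, edgeR adjusted p = 0.000285). For eIF2Balpha the WT samples were tightly grouped at 205, 208 and 204 and the KD samples more spread at 356, 531 and 551, with a log2 fold change of 1.22 (SE 0.18, edgeR adjusted p = 0.000907). None of the 3 had overlapping groups, but eIF2Balpha and eIF2Bbeta passed both thresholds in only 1 of the 6 fits that leave out a sample.

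eIF2D, which can deliver tRNA to the ribosome without GTP and takes part in recycling (chromosome 3R, 29149896 to 29151794, minus strand), is not a subunit of eIF2 but rose by a similar amount to eIF2B. Its normalised counts were 339, 336 and 352 in WT against 728, 975 and 995 in the KD, a log2 fold change of 1.39 (SE 0.14, edgeR adjusted p = 0.00019). The WT samples lay close together and M1BP RNAi sample 1 was the lowest of the KD samples.

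**Figure D2:**
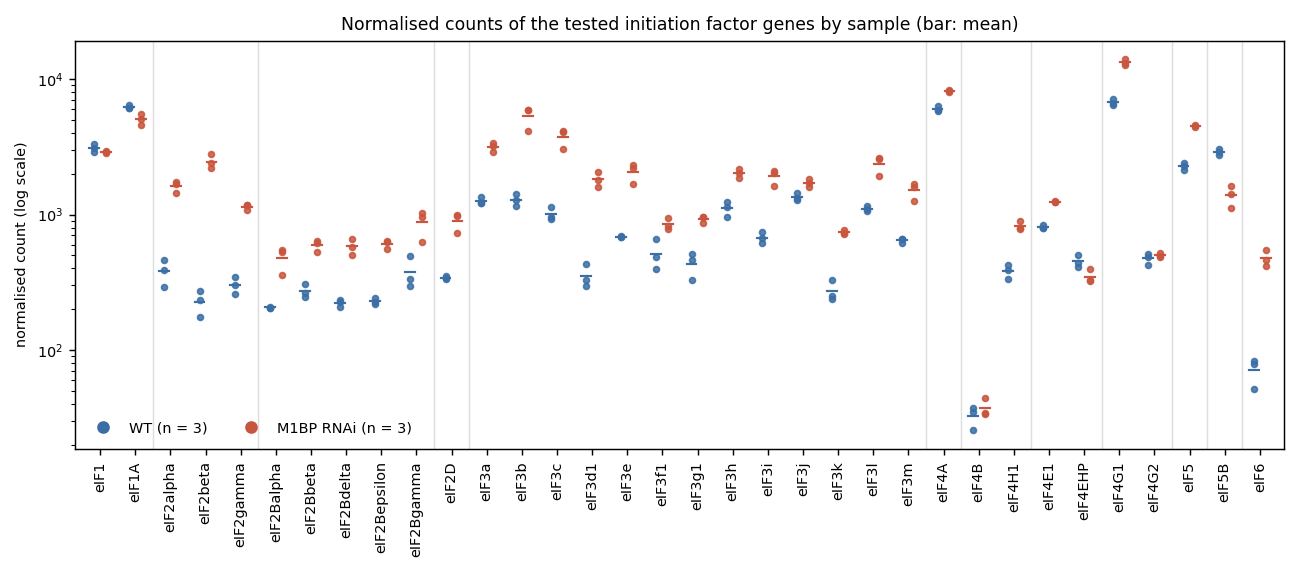
Normalised counts (log scale) of the 34 tested initiation factor genes in each of the 3 WT and 3 M1BP RNAi samples, with the mean of each group as a bar. The eIF2beta samples lie at 175 to 271 in WT against 2188 to 2777 in the KD, whereas the points of eIF1, eIF4B and eIF4G2 overlap between the groups.

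eIF3, the largest initiation factor and the scaffold on which the small ribosomal subunit, the initiator tRNA and eIF4F meet, had 16 genes under the rule, of which 13 were tested and 9 rose. The fold changes were uneven among its parts. eIF3d1, the gene of the subunit that in mammals can itself bind the cap (chromosome 3R, 23680039 to 23682317, plus strand), had 327, 297 and 434 normalised counts in WT against 1601, 1797 and 2056 in the KD. That is a log2 fold change of 2.36 (SE 0.18, edgeR adjusted p = 4.78e-05), above that of any other eIF3 gene tested. The KD samples all stood well above the WT samples.

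The core subunit genes eIF3a, eIF3b and eIF3c also rose, and the first of them by less. eIF3b, which organises the part of eIF3 near the mRNA entry channel (chromosome 2R, 17536213 to 17539142, plus strand), was at 1164, 1285 and 1412 normalised counts in WT against 4109, 5953 and 5905 in the KD (log2 fold change 2.05, SE 0.18, edgeR adjusted p = 8.69e-05). eIF3c, which binds eIF1 and eIF5 (chromosome 2R, 17665678 to 17669275, plus strand), had 923, 956 and 1141 in WT against 3066, 4079.8 and 4132 in the KD (log2 fold change 1.90, SE 0.16, edgeR adjusted p = 8.29e-05). M1BP RNAi sample 1 was the lowest KD sample for both genes and still lay well above all WT samples. eIF3a, the subunit that spans the complex, had 1208, 1219 and 1355 in WT against 2883, 3394 and 3205 in the KD, with a log2 fold change of 1.33 (SE 0.12, edgeR adjusted p = 0.000111).

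The other eIF3 genes that rose were eIF3e, eIF3k, eIF3l and eIF3m of the outer ring of the complex and eIF3i, a propeller-shaped partner of eIF3b. eIF3e was at 681, 696 and 687 normalised counts in WT against 1688, 2195 and 2335 in the KD (log2 fold change 1.59, SE 0.15, edgeR adjusted p = 0.000115). eIF3i was at 616, 666 and 745 in WT against 1610.0, 2033 and 2099.5 in the KD (log2 fold change 1.501, SE 0.15, edgeR adjusted p = 0.000148). In both genes the WT and KD samples were clearly apart. For eIF3k, the normalised counts were 239.6, 251 and 327 in WT against 720.5, 732 and 771 in the KD (log2 fold change 1.44, SE 0.14, edgeR adjusted p = 0.000144). In eIF3m, 657, 654 and 620.3 in WT stood against 1248, 1597 and 1668 upon M1BP RNAi (log2 fold change 1.22, SE 0.14, edgeR adjusted p = 0.00029). eIF3l had 1066, 1159 and 1096 in WT against 1920.2, 2609 and 2566 in the KD (log2 fold change 1.10, SE 0.15, edgeR adjusted p = 0.000625). eIF3l and eIF3m passed both thresholds in 1 of the 6 fits that leave out a sample.

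The 4 tested eIF3 genes that did not pass the thresholds were eIF3f1, eIF3g1, eIF3h and eIF3j, all of them with log2 fold changes above 0 and with groups that did not overlap. eIF3j encodes the loosely bound subunit that sits in the mRNA channel of the small ribosomal subunit, and eIF3j was the highest of the eIF3 genes in WT per kb of exon. Its normalised counts were 1316, 1282 and 1429.7 in WT against 1588, 1713 and 1840.4 in the KD, a log2 fold change of 0.35 (SE 0.12, edgeR adjusted p = 0.0322). The groups were close to each other but did not overlap. eIF3f1, an MPN-fold subunit of the outer ring, had 486, 396 and 663 normalised counts in WT against 940.0, 829 and 777 in the KD (log2 fold change 0.72, SE 0.19, edgeR adjusted p = 0.0146). eIF3h, the other MPN-fold subunit, had 1129.7, 966 and 1231 in WT against 1858, 2024 and 2184 in the KD (log2 fold change 0.87, SE 0.13, edgeR adjusted p = 0.00125). WT sample 3 was the highest WT sample for both eIF3f1 and eIF3h. eIF3g1, an RNA-binding partner of eIF3b and eIF3i, had 460.4, 328 and 511 in WT against 861, 964 and 957 in the KD, with a log2 fold change of 1.10 (SE 0.17, edgeR adjusted p = 0.00125). These values lie near the threshold for eIF3g1 and eIF3h, which DESeq2 called higher, and eIF3h shares 16.8% of its exon bases with senju on the opposite strand.

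The fold changes of the factors that act at the start codon differed in sign. eIF1 and eIF1A, the small proteins that keep the scanning complex open, had log2 fold changes near or below 0. eIF1 (chromosome 3L, 3223341 to 3224650, plus strand) was at 3322, 3109 and 2893 normalised counts in WT against 2859, 2967 and 2914 in the KD, so the groups overlapped (log2 fold change −0.09, SE 0.11, edgeR adjusted p = 0.505). eIF1A (chromosome 3R, 18274665 to 18283005, plus strand) was at 6066, 6428 and 6109 in WT against 4542, 5501 and 5103 in the KD (log2 fold change −0.30, SE 0.12, edgeR adjusted p = 0.0701). The KD samples of eIF1A all lay below the WT samples, though not past the threshold, and with total library scaling the log2 fold changes of eIF1 and eIF1A turned to 0.66 and 0.45.

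eIF5, the GTPase activator of eIF2 (chromosome X, 15987008 to 15991974, minus strand), had 2146, 2284 and 2404 normalised counts in WT against 4568, 4492 and 4411 in the KD, with a log2 fold change of 0.98 (SE 0.11, edgeR adjusted p = 0.000277). The 3 samples of each group were close together. This value belongs to a pair of genes, because eIF5 shares 80.8% of its exon bases on the same strand with CG46312, which had 21601 counts in all beside 21651 for eIF5, and the reads of both cannot be told apart.

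eIF5B, the GTPase that joins the large ribosomal subunit at the start codon (chromosome 3L, 3428658 to 3460977, minus strand), had the lowest fold change among the 34 genes. Its normalised counts were 2903, 3019.7 and 2734 in WT against 1117, 1633 and 1408 in the KD, so every KD sample was below every WT sample. The log2 fold change was −1.06 (SE 0.16, edgeR adjusted p = 0.00102), just short of the threshold of 0.001, and eIF5B was called lower by DESeq2, with RLE normalisation, with normalisation on nuclear genes only, with no filter on low counts and with a stricter filter. It was not called with total library size (−0.31, edgeR adjusted p = 0.119) or in any of the 6 fits that leave out a sample, where the log2 fold change ran from −1.19 to −0.92 and the edgeR adjusted p from 0.00139 to 0.00548.

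eIF6, which binds the large ribosomal subunit and is also needed to make it (chromosome 2R, 23849246 to 23850301, minus strand), had 51.3, 78.3 and 83.2 normalised counts in WT against 459.7, 549.8 and 416 in the KD. The lowest KD sample was about 5-fold above the highest WT sample. The log2 fold change was 2.72 (SE 0.20, edgeR adjusted p = 4.29e-05), which placed eIF6 236th of 9276 genes.

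The genes of eIF4F, which recruits capped mRNAs, had log2 fold changes below those of the eIF2 genes. eIF4G1, the scaffold that links the cap to eIF3 and to the poly(A)-binding protein (chromosome 4, 915297 to 930715, minus strand), was at 6473, 7145 and 6620.1 normalised counts in WT against 12651, 13990.1 and 13220.1 in the KD. It rose, with a log2 fold change of 0.98 (SE 0.12, edgeR adjusted p = 0.000356), though it passed both thresholds in only 1 of the 6 fits that leave out a sample. The helicase gene eIF4A (chromosome 2L, 5981764 to 5985909, plus strand) was at 5790.4, 5892 and 6320.4 in WT against 8251, 8043 and 8164 in the KD, a log2 fold change of 0.44 (SE 0.11, edgeR adjusted p = 0.0105). The cap-binding gene eIF4E1 (chromosome 3L, 9399618 to 9402460, minus strand) was at 794, 802 and 835 in WT against 1265, 1231 and 1239 in the KD (log2 fold change 0.62, SE 0.10, edgeR adjusted p = 0.00152). For both eIF4A and eIF4E1 the KD samples lay above all WT samples by small amounts that did not pass the thresholds, and DESeq2 called eIF4E1 higher.

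eIF4B and eIF4H stimulate the helicase. eIF4H1 (chromosome X, 16448665 to 16454972, plus strand) rose from 335, 388 and 427 normalised counts in WT to 901, 801 and 776 upon M1BP RNAi (log2 fold change 1.10, SE 0.13, edgeR adjusted p = 0.000324). eIF4B had few counts, with 15, 28 and 37 counts in WT against 33, 44 and 55 in the KD before normalisation, and its groups overlapped (log2 fold change 0.17, SE 0.25, edgeR adjusted p = 0.579).

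Because the fold changes within a factor differed, the balance of subunit transcripts was compared within each sample, as counts per kb of exon. In eIF2, eIF2beta made up 29.2%, 38.7% and 34.2% of the summed counts per kb in WT against 57.5%, 56.6% and 59.4% in the KD. The shares of eIF2alpha (mean 42.6% in WT and 28.4% upon M1BP RNAi) and eIF2gamma (23.4% and 13.8%) were lower in all KD samples than in all WT samples. The ratio of the highest to the lowest eIF2 subunit was between 1.52 and 2.18 in WT and between 3.96 and 4.62 in the KD, where eIF2beta was the highest in each sample. The eIF2 transcripts were thus less even in every KD sample than in any WT sample.

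In eIF3 the order of the subunits differed between the groups. eIF3d1, the lowest of the 13 per kb in all WT samples, made up 2.72%, 2.55% and 3.19% of the summed counts per kb in WT against 6.07%, 5.63% and 6.27% in the KD. eIF3j, the highest in all WT samples, had 16.2%, 16.2% and 15.5% in WT against 8.89%, 7.93% and 8.28% in the KD. eIF3b took the top place in all KD samples, with 7.26%, 8.26% and 7.78% in WT against 11.7%, 13.998% and 13.5% in the KD, and eIF3f1 the lowest. The ratio of the highest to the lowest subunit was between 4.86 and 6.37 in WT and between 2.12 and 3.69 in the KD, so that the eIF3 transcripts were more even in the KD.

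Relative to the median subunit of its factor, 14 of 24 subunits did not overlap between the groups, with 8 of these higher in the KD and 6 lower. The share over all genes was not computed for such ratios. In normalised counts the groups did not overlap for 33.1% (higher) and 31.1% (lower) of all genes tested, so separate groups were common in these data. eIF4G1 was its own reference in eIF4F and could not differ. In the other factors the median subunit was not the same gene in all samples. For eIF2 it was eIF2beta in WT samples 1 and 3, and eIF2alpha in WT sample 2 and all KD samples. In eIF3 it was eIF3c in all KD samples but in no WT sample. Against the sum of the other subunits, 12 of the 24 did not overlap. On that measure the differences were 1.42 for eIF2beta, −0.93 for eIF2gamma and 0.65 for eIF3c. By a two-sided exact permutation test on the log2 ratios, 3 against 3 samples cannot give a p below 0.1, and after adjustment over the 24 subunits the smallest was 0.171, so none passed 0.05. The differences in log2 ratio were 0.99 for eIF2beta, 1.05 for eIF3d1, 0.70 for eIF3b, 0.56 for eIF3c, −0.54 for eIF2gamma, −0.46 for eIF3h and −0.98 for eIF3j. In eIF2B the shifts were small, at 0.22 for eIF2Bdelta and 0.25 for eIF2Bepsilon. In eIF4F the median subunit was eIF4G1 in all 6 samples, against which eIF4A differed by −0.53 and eIF4E1 by −0.36, but against the sum of the other subunits eIF4E1 differed by −0.00. The share of eIF4E1 in eIF4F was 9.52% ± 0.142 in WT against 9.49% ± 0.216 (SD, n = 3) in the KD, and that of eIF4G1 27.0% ± 1.41 and 34.5% ± 1.43 (SD, n = 3).

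**Figure D3:**
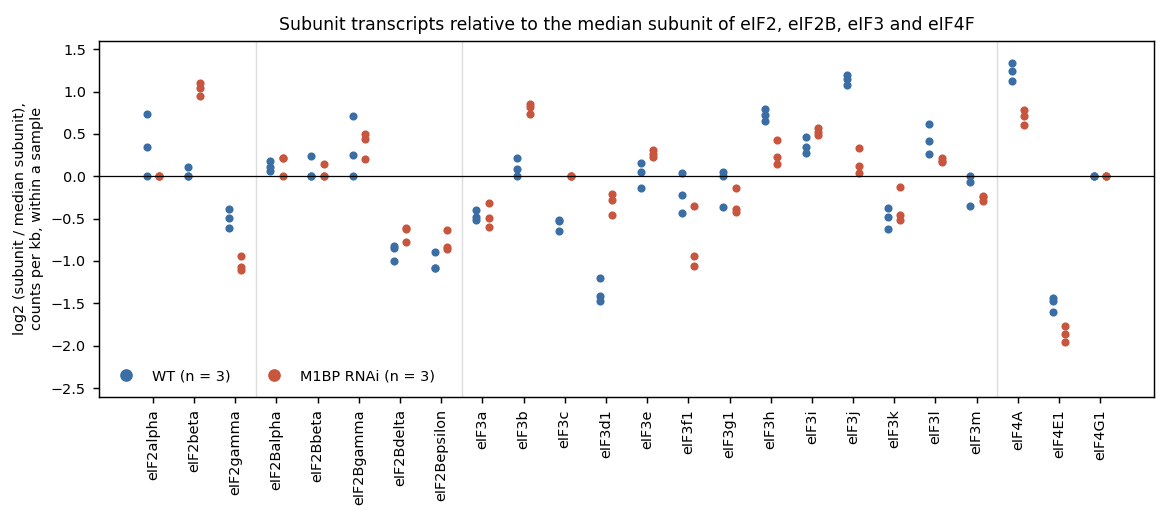
Transcripts of each subunit relative to the median subunit of its factor (log2 ratio of counts per kb within a sample) for eIF2, eIF2B, eIF3 and eIF4F in 3 WT and 3 M1BP RNAi samples. Points of eIF2beta, eIF3b and eIF3d1 lie higher and those of eIF2gamma and eIF3j lower upon M1BP RNAi, and eIF4G1 is at 0 in each sample because it is the median subunit of eIF4F.

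Drosophila melanogaster keeps extra copies of several initiation factor genes, and 11 of the 43 genes are such paralogs. Of these, 9 were not tested, with at most 9 counts in any sample, 45 counts in all and no value above 0.385 TPM, a level relative to exon length and to the sum over all genes, mitochondrial ones included (at most 1.26 TPM over nuclear genes alone). eIF3d2, eIF3f2, eIF3g2 and eIF4E7 were at 0 in all 6 samples. Against a floor of 3 counts over a group, their main genes were at least 323-fold (eIF3d1 over eIF3d2), 344.5-fold (eIF3f1 over eIF3f2), 336-fold (eIF3g1 over eIF3g2) and 477-fold (eIF4E1 over eIF4E7) higher per kb in WT. Upon M1BP RNAi the bounds were 2481-fold, 808-fold, 1069-fold and 1095-fold. No count of eIF3d2 appeared beside the rise of eIF3d1.

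Among the eIF4E copies, eIF4E3, which is needed in male germ cells for meiosis, had 1 count in WT sample 2 and 1 in M1BP RNAi sample 3. eIF4E4 had a single count, in M1BP RNAi sample 3. eIF4E5 had 1, 3 and 3 counts in WT and 0 in each M1BP RNAi sample, where eIF4E1 was at least 682-fold higher per kb. These counts are too few to show a difference between the groups. eIF4E6 had 2, 5 and 7 counts in WT against 8, 2 and 9 in the KD, the highest total of the untested genes, and eIF4H2 had 0 in WT against 1, 0 and 1 in the KD. In WT, eIF4H1 was at least 135-fold above eIF4H2 per kb.

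The 2 paralogs with enough counts were eIF4EHP and eIF4G2. eIF4EHP binds the cap without eIF4G and so represses the mRNAs it holds (chromosome 3R, 24063077 to 24108960, minus strand). Its normalised counts were 411, 506 and 435 in WT against 322, 397 and 328 in the KD, all KD samples being below all WT samples (log2 fold change −0.37, SE 0.13, edgeR adjusted p = 0.0459). It did not pass the threshold of 0.001, and its fold change turned to 0.37 with total library scaling. Per kb, eIF4EHP was at 19.4% ± 2.25 of eIF4E1 in WT against 9.76% ± 1.28 (SD, n = 3) in the KD, a ratio within each sample that does not depend on library scaling. eIF4EHP shares 6.96% of its exon bases on the same strand with Syx1A, which had 2475 counts in all beside 2325 for eIF4EHP. By sample, Syx1A had 249, 381 and 480 counts in WT against 333, 447 and 585 in the KD. The counts of eIF4EHP were 240, 381 and 460 in WT against 312, 396 and 536 in the KD, so the 2 genes were close in each sample. How many reads come from the shared exon cannot be read from the counts. The fold change of eIF4EHP and its ratio to eIF4E1 may thus belong in part to Syx1A.

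eIF4G2, an eIF4G copy with a role in male meiosis (chromosome 3R, 23808285 to 23819237, minus strand), was at 515, 482 and 426 normalised counts in WT against 516, 491 and 489.6 in the KD. Its groups overlapped (log2 fold change 0.08, SE 0.11, edgeR adjusted p = 0.587). Per kb it was at 5.08% ± 0.583 of eIF4G1 in WT against 2.72% ± 0.211 (SD, n = 3) in the KD, while eIF4G1 rose. The exons of eIF4G2 overlap those of CG33111 over 8.56% of their length on the same strand.

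**Figure D4:**
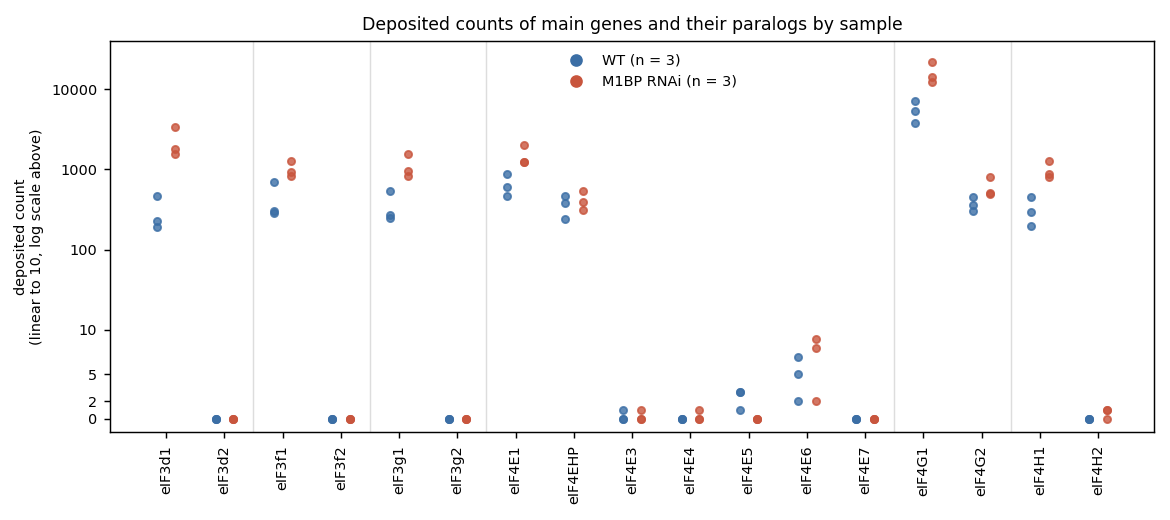
Deposited counts (linear up to 10, log scale above) of main genes and their paralogs in each of the 3 WT and 3 M1BP RNAi samples. eIF3d2, eIF3f2, eIF3g2 and eIF4E7 lie at 0 in all samples, the other untested eIF4E and eIF4H copies at 9 or below, and eIF4EHP and eIF4G2 are the paralogs with enough counts to be tested.

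Levels and fold changes of the initiation factor genes were also set against each other. Over the 34 tested genes, Spearman's rho between the WT normalised count per kb and the log2 fold change was −0.33, and with the level upon M1BP RNAi it was 0.10. Genes are not independent replicates, the fold change contains the level, and all values share the same 6 libraries. The genes lie on all major chromosomes, with 3 on 2L, 9 on 2R, 10 on 3L, 13 on 3R, 1 on 4 and 7 on X.

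Beyond the genes named eIF, 33 genes of 5 lists of related translation factors were tested, of which 11 rose (11.0% of all genes tested) and none fell past both thresholds (6.58%), with 4 lower at an unadjusted p under 0.05 in edgeR. DESeq2 called 18 of them higher and 2 lower, beside 12.8% and 9.57% of all genes it fitted. Without WT sample 1, 7 of the 33 were called higher. Their median log2 fold change was 0.69, below that of the initiation factor genes. Of the genes that act on eIF2alpha, the kinase gene Gcn2 rose (log2 fold change 1.32, SE 0.12, edgeR adjusted p = 0.000119). The same list holds crc, which does not act on eIF2alpha but encodes the fly ATF4 that is translated when eIF2alpha is phosphorylated. It rose as well (1.69, SE 0.12, edgeR adjusted p = 3.63e-05). The other kinase gene, PEK, and the phosphatase subunit gene PPP1R15 did not pass, with log2 fold changes of 0.45 and −0.44. Thus 2 of 4 genes of this list, Gcn2 and crc, were called. At an adjusted p of at most 0.05 with any fold (edgeR), PEK was also higher and PPP1R15 lower. That made 3 of the 4 higher (29.1% of all genes) and 1 lower (27.0%).

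Among 9 genes that bind or regulate the cap and the poly(A) tail, pAbp, the poly(A)-binding protein gene, was the 1 that rose (log2 fold change 1.70, SE 0.14, edgeR adjusted p = 7.35e-05). The list moved in both directions. At an adjusted p of at most 0.05 with any fold (edgeR), 2 of the 9 were higher, pAbp and cup (1.32). Lower were 3, namely Paip2 (−1.08), Gyf (−0.70) and 4E-T (−0.57). Over all genes tested, 29.1% were higher and 27.0% lower on that rule. Thor, the fly 4E-BP that sequesters eIF4E, had 28813 ± 6684 normalised counts in WT against 33083 ± 10635 (SD, n = 3) in the KD, a difference smaller than the spread between samples. Of the 6 helpers of initiation and recycling, pix, the ABCE1 recycling factor (log2 fold change 1.06), and MCTS1, a tRNA-binding partner of DENR (1.23), rose. Of 12 elongation and release factor genes, 5 rose, and the median log2 fold change of the 12 was 1.03. The 5 were eEF1alpha2 (3.18), eEF1gamma (1.59) and eEF2 (2.02) of elongation, the release factor gene eRF3 (1.91) and HBS1 (1.58), which rescues stalled ribosomes. Of the 2 mitochondrial initiation factor genes, mIF2 rose (2.26) and mIF3 did not pass (0.59).

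**Figure D5:**
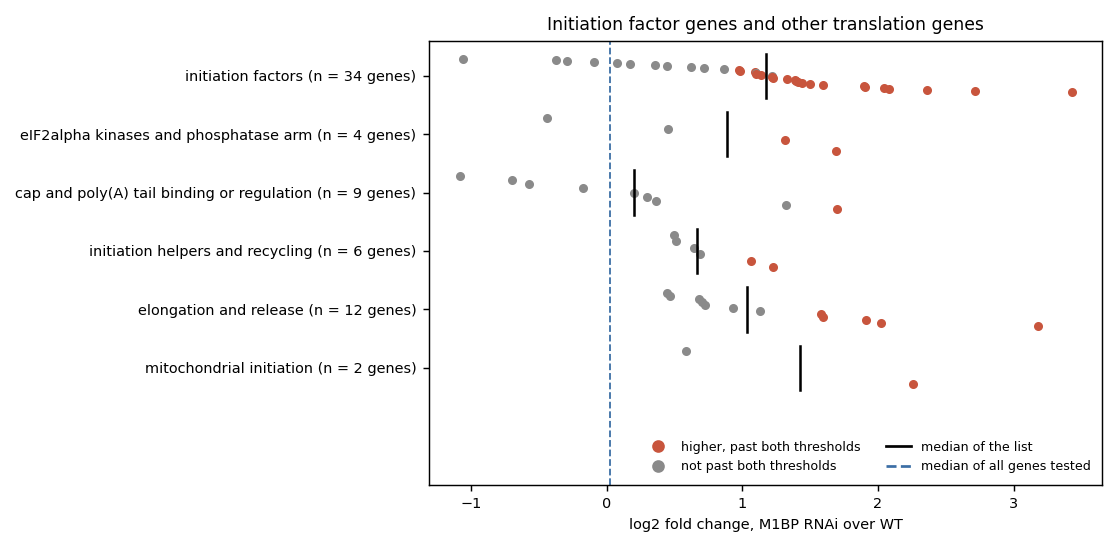
Log2 fold changes (M1BP RNAi over WT) of the 34 tested initiation factor genes and of 5 lists of other translation genes, with 1 point per gene, the median of each list as a black bar and the median of all 9276 genes tested as a dashed line. Red points passed an adjusted p of 0.001 and 1.5-fold. The medians are 1.17 for the initiation factors, 1.03 for elongation and release and 0.20 for the cap and poly(A) tail list.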

How the data were processed

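PolyA RNA of 6 samples was sequenced from a stranded library kit. The authors deposited raw counts per gene over exons, without normalisation, on the genome build dm6. The submitters' processing notes name bcl2fastq 2.17.1.14, Subread, featureCounts and DESeq2 1.3.0, and whether the counting used strand is not given in the sources used here. Of a second table, which holds the result of DESeq2 as run by the authors, only the gene symbols and identifiers were used. Its columns of fold changes and p-values were left out. Of the 17494 genes in the count table, 17492 were in both tables, 0 columns of sample values went unused, and all 43 initiation factor genes had the same position in the Ensembl release 115 annotation.

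Counts were tested with R 4.3.3 and edgeR 4.0.16 (glmQLFit and glmQLFTest, TMM factors, filterByExpr, Benjamini-Hochberg over 9276 genes). Standard errors were derived from the F statistic. Normalised counts are counts divided by the effective library size and multiplied by its mean over the 6 samples. Levels of different genes were compared only per kb of exon. Ratios within a factor were tested by exact permutation in Python 3.11.15. The fits were first tested on simulated data. Values with all counts at 0 were read against a floor of 3 counts, which covers counting error only, as the library depth of 37908823 to 64871987 counts does.

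Initiation factor genes were named by symbol. Full values were given for each called gene, the highest gene of each factor number and the paralogs. Cell type markers and the 5 lists of other translation genes were taken from general knowledge. The members and lists were chosen with earlier results of these data known. The list of elongation and release factors held the symbol eIF5A, which is not used in the table (eEF5 was in the list). The labels number the samples but do not say how cultures were kept apart, so p-values measure the spread between these samples. Alternatives were DESeq2 1.42.0, other scalings and filters, looser thresholds, a replicate block and leaving out each sample. Promoter sequences were not used here.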

Additional observations from a re-analysis of the deposited data

How the results depend on the processing

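Direction and side of the threshold were kept by 209 of 237 values under the alternatives that keep all samples, 18 passed the threshold in addition, 7 no longer passed and 3 reversed. All 21 initiation factor genes called higher were also called under DESeq2 (25 in all), RLE normalisation (21), total library size (28), TMM on nuclear genes (21), no filter (23) and a stricter filter (21). The number lower was 1 under DESeq2, RLE normalisation, TMM on nuclear genes, no filter, the stricter filter and an adjusted p of at most 0.05 with 1.5-fold, and 2 at an adjusted p of at most 0.05 with any fold. DESeq2 gave no adjusted p for 4 of 39 genes. Leaving out 1 sample gave 8 to 21 initiation factor genes higher (8 without WT sample 1, 11 without WT sample 2 and 11 without M1BP RNAi sample 2). Fewer samples also lowered the share of all genes called from 11.0% to between 4.41% and 8.94%. Of 204 values in these fits, 45 no longer passed. The 204 cover all tested initiation factor genes, whereas only values of the 21 called genes could cease to pass. With total library size the log2 fold changes of eIF1, eIF1A and eIF4EHP reversed to 0.66, 0.45 and 0.37, and over all genes 2576 were called higher and 137 lower, where TMM gave 1016 and 610. This scaling carries the different mitochondrial share of the libraries into every nuclear gene by construction. The related translation genes called higher numbered 18 under DESeq2, 24 with total library size and 7 to 10 when 1 sample was left out, and 2 were called lower under DESeq2. Against the sum of the other subunits, the difference of eIF2beta was 1.42 and that of eIF4E1 −0.00. Whether the replicate numbers pair the samples is not stated in the labels. The deviations of same-numbered samples correlated at 0.05, 0.18 and −0.02, and not every sample correlated best with its own number. Deviations from a mean of 3 samples depend on each other, so these correlations cannot decide the question. With the replicate number as a block, 14 of the 21 genes were called and none in addition, and 544 genes were called higher over all genes. eIF5B was not called with the block (edgeR adjusted p = 0.00273). The cause of these differences was not tested. The search for promoter motifs and its second window were not run. The counts of the 9 untested paralogs are too few to show a change. Over nuclear genes alone, 8 of the 11 paralogs were below 1 TPM in every sample, beside 9 over all genes.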
